A study of Rattus norvegicus with 9 samples.

Results

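The genes described are the collagen chains, every gene whose symbol on the array is Col followed by a type number, the letter a and a chain number. The arrays carried 54 probes for 37 such genes among 30367 probes in all, which carry 19293 gene names other than a probe ID or accession. Where a gene had several probes (14 genes), the probe with the highest mean log2 signal over the 9 arrays stood for it. The chains were taken by class, with 11 fibrillar chains, 5 chains of the basement membrane (Col4a1 to Col4a5) and 21 others. Chains with no probe under such a symbol (Col25a1 and Col28a1 among them) were not analysed here.

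The 9 arrays measured RNA from the infarcted hemisphere of male Sprague Dawley rats at day 14, with 3 rats in each of 3 groups and 1 array per rat. Sham rats were operated without occlusion, and I/R rats underwent occlusion of the middle cerebral artery (MCAO) with a nylon suture and then reperfusion. DHI rats had the same occlusion and reperfusion and were given Danhong injection, an extract of Salvia miltiorrhiza and Carthamus tinctorius, daily by the tail vein, at a dose that the study's methods give in conflicting units and that is not printed here. Sham rats received solvent by the same route, and no genetic allele was involved. The age of the rats was not given in the sources used here. Each value below is a log2 signal scaled to the 75th percentile of its array. It can be compared between arrays for a given probe but not between probes.

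Collagens are the main structural proteins of the extracellular matrix. Each chain carries long stretches in which glycine recurs at a fixed short spacing, which lets 3 chains wind into a helix, and chains of a type assemble as homotrimers or heterotrimers before they leave the cell. Fibrillar collagens form the fibrils of connective tissue and scar, collagen IV forms the network of basement membranes, and the remaining types decorate fibrils, anchor membranes or form networks of their own. In the uninjured brain, collagen is largely limited to vessel walls and the meninges.

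Sequences are shown for the chains of collagen IV because in them the repeat and the gene arrangement can be read directly. Among the 54 collagen probes, 1 held at least 5 glycine codons (GGN) spaced 9 bases apart in an open frame, against 17 of all 30367 probes (0.056%). It was the dimmer probe of Col4a1, at chr16:83146135-83146194 on the plus strand of the rn4 build, and its 60 bases are printed with the 6 glycine codons in capitals.

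Col4a1 probe: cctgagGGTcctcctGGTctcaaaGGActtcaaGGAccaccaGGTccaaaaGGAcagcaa

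The genes Col4a1 and Col4a2, whose products form a common heterotrimer, start head to head. In the RefSeq annotation of the GRCr8 build, Col4a2 starts at chr16:84885520 on the minus strand and Col4a1 at chr16:84885597 on the plus strand. The 76 bases between both starts (chr16:84885521-84885596) are printed from the plus strand, with the capitals marking the match to GGGCGG, which here lies on the minus strand. GC content of the stretch was 78.9%.

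Col4a2-Col4a1 intergenic: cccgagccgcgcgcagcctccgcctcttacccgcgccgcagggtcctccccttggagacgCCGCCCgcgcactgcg

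The RefSeq promoter windows, which run from 250 bases before to 50 bases after a gene's start, were given for 30 of the 37 chains. Searched on both strands, GGGCGG was found in the windows of 18 of these 30 chains and in 33.1% of all 33469 windows. CCAAT was found for 8 of 30 chains and in 37.5% of all windows, and TATAAA for 4 of 30 chains and in 14.2%. Both Col4a1 and Col4a2 windows, which overlap, held GGGCGG and CCAAT. These matches describe letters and no binding was measured. Col4a3 and Col4a4 also start in opposite directions, with 412 bases between their starts on chromosome 9 of GRCr8.

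The test took probes that the scanner software marked as well above background on each of the 3 arrays of some group, 23747 probes and 32 of the 37 chains (11 fibrillar, 4 basement membrane and 17 other). Of the 37 chains, 31 were well above background on all 3 Sham arrays. Col6a3 entered the test only through the I/R arrays, where it had to be high, so its difference is given as a bound where the design allows one, and counts are also given without it. The 5 chains not tested were Col4a3, Col6a6, Col8a2, Col10a1 and Col17a1. Col6a6, Col8a2 and Col10a1 (of hypertrophic cartilage) did not stand well above background anywhere, and Col4a3 was so on 2, 2 and 1 of the Sham, I/R and DHI arrays. Col17a1, a transmembrane chain of hemidesmosomes, was well above background on 2 Sham arrays (-6.93, -6.98 and -8.18 on Sham 1 to 3) and on no I/R or DHI array. No fold change or bound is given for Col17a1, since not all of its Sham arrays were well above background.

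Sham and I/R arrays were hybridised on slide 1 and DHI arrays on slide 2, so that in both comparisons with DHI the slide cannot be told apart from the treatment. DHI 1 stood apart from DHI 2 and DHI 3, and results with DHI are given with and without it. Markers of neurons (7 of 7), astrocytes (7 of 7) and oligodendrocytes (7 of 7) were well above background on all Sham arrays. So were 7 of 8 cartilage and bone markers and 4 of 5 red blood cell markers, so detection alone does not check the brain label. Between 75.2% and 78.9% of probes were well above background per array. I/R versus Sham and DHI versus I/R share the I/R arrays, and their fold changes are for that reason given side by side and not correlated.

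The comparison of I/R versus Sham asks how collagen expression stood 14 days after ischemia and reperfusion. Most collagen chains rose in I/R, led by Col3a1 (29.3-fold), Col1a1 (27.4-fold) and Col15a1 (21.1-fold). At the methods' thresholds (limma, unadjusted p under 0.05 and FC over 1.5), 24 of 32 chains rose and 2 fell, where 20.8% of all tested probes rose and 22.3% fell (43.1% in either direction). The median log2 fold change of the chains was 2.29 (range -1.37 to 4.88), against -0.10 for all probes tested. With Col6a3 set at its bound the median was 2.26, and without Col6a3 23 of 31 chains rose and 2 fell. With Benjamini-Hochberg adjustment in limma, 22 chains rose and 1 fell (21 and 1 of 31 without Col6a3), against 16.4% and 15.1% of all probes. For 24 chains (Col6a3 included) each I/R array was above each Sham array, and for 2 each was below, against 26.7% and 35.8% of all probes. In these bulk samples, fewer cells of a type cannot be told apart from less RNA per cell.

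The medians of the 3 classes were close to each other. The median log2 fold change was 2.26 over the fibrillar chains (7 of 11 rose) and 2.59 over the basement membrane chains (3 of 4 rose). It was 2.32 over the others (14 rose, Col6a3 included, and 2 fell of 17). Adjusted p-values of the 23 chains (Col6a3 included) lay between 0.0396 and 0.0458 in limma, close under the threshold. The adjusted count was 0 when any of the 3 Sham arrays, I/R 1, I/R 2 or DHI 3 was left out, with at most 0.00421% of all probes passing. The count without adjustment stayed between 23 and 27 when any single array was left out, where 31.7% to 48.6% of all probes were called.

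**Figure D1:**
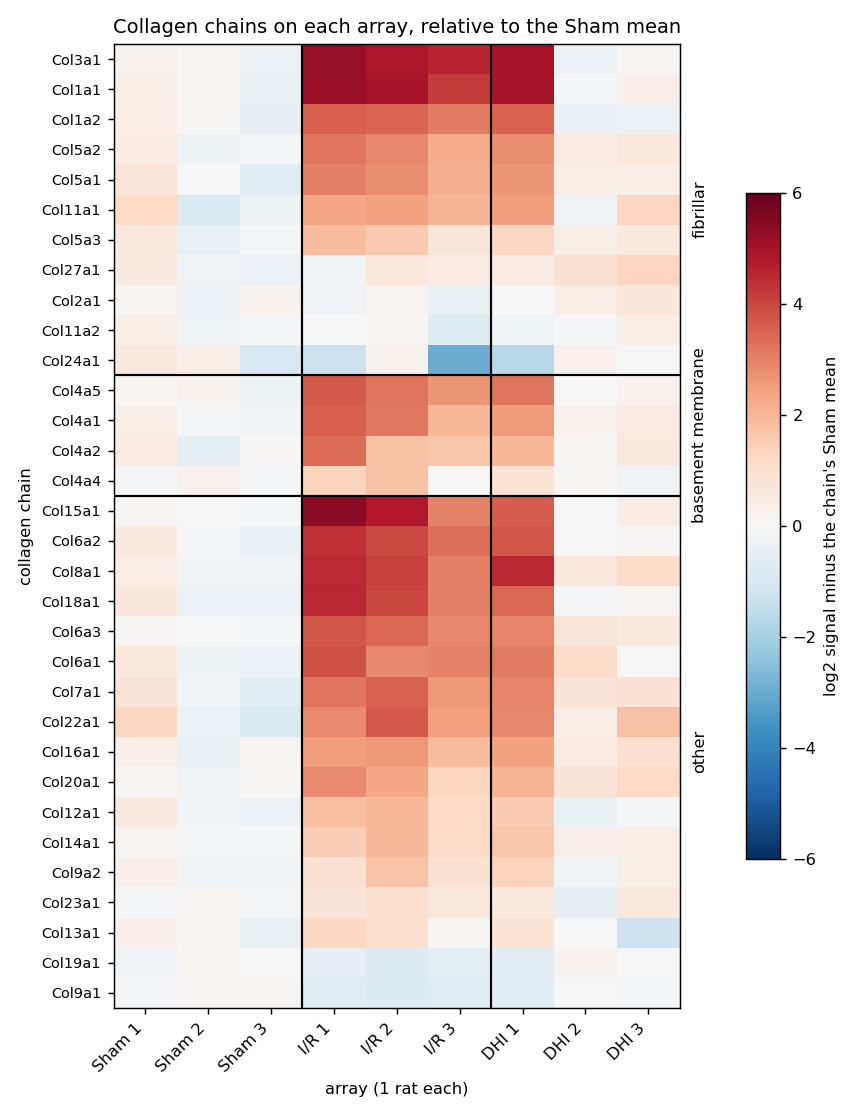
Heat map of the 32 tested collagen chains (rows, by class and then by fold change in I/R versus Sham) on the 9 arrays (columns). Color gives the log2 signal minus the chain's Sham mean. The 3 I/R arrays and DHI 1 are red for most chains, and DHI 2 and DHI 3 are near the Sham arrays, with medians over the 32 chains of 0.14 and 0.37.

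Within the fibrillar class, the chains of types I and III, which build the thick fibrils of scars, had the highest fold changes. Col3a1, the single chain of collagen III, measured -0.57, -0.65 and -1.13 on Sham 1 to 3, 4.43, 4.08 and 3.77 on I/R 1 to 3, and 4.16, -1.13 and -0.70 on DHI 1 to 3. All I/R arrays and DHI 1 were far above the Sham arrays, and DHI 2 and DHI 3 were level with Sham. The log2 fold change of Col3a1 in I/R versus Sham was 4.88 ± 1.22 (SE, limma, adjusted p = 0.0396). Col1a1, the major chain of collagen I, measured -0.18, -0.43 and -0.97 on Sham, 4.67, 4.41 and 3.66 on I/R, and 4.42, -0.60 and -0.23 on DHI arrays. Its fold change in log2 was 4.78 ± 1.18, and its second probe gave 3.88. Col1a2, the partner of Col1a1 in the collagen I heterotrimer, measured 2.58, 2.26 and 1.67 on Sham, 5.77, 5.68 and 5.27 on I/R, and 5.69, 1.77 and 1.83 on DHI arrays. The rise of Col1a2 was 3.41 ± 0.95 on the log2 scale, 10.6-fold, and again DHI 1 alone of the DHI arrays lay at the I/R level.

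Collagen V and XI chains are minor partners that set the diameter of collagen I and II fibrils, and all but Col11a2 rose. Col5a2 went from -1.77, -2.54 and -2.34 on the Sham arrays to 0.98, 0.66 and 0.01 on the I/R arrays, with 0.58, -1.74 and -1.60 on DHI 1 to 3. Col5a1 went from -3.20, -3.94 and -4.58 to -0.86, -1.09 and -1.72, with -1.25, -3.53 and -3.53 on the DHI arrays. The log2 fold changes were 2.77 ± 0.60 for Col5a2 (3.22 at its second probe) and 2.68 ± 0.64 for Col5a1. Col5a3, a chain of some collagen V trimers, measured -0.23, -1.27 and -0.92 on Sham, 1.04, 0.75 and -0.09 on I/R, and 0.43, -0.44 and -0.20 on DHI arrays. I/R 3 exceeded Sham 1 by little for Col5a3, whose fold change was 1.38 ± 0.39. Col11a1 measured -2.80, -4.83 and -4.30 on Sham, -1.68, -1.55 and -1.92 on I/R, and -1.48, -4.19 and -2.67 on DHI arrays. Its rise of 2.26 ± 0.72 was met by 2.47 and 2.70 at the further probes of the gene, and it missed the threshold without Sham 2.

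The other 4 fibrillar chains did not pass the test in I/R versus Sham. Col2a1, the main collagen of cartilage, had a log2 fold change of -0.19 (95% interval -0.76 to 0.39) and Col11a2, its partner in cartilage fibrils, of -0.22 (-0.86 to 0.42). Col27a1, also known from cartilage, had 0.32 (-0.44 to 1.08). Col24a1 had -1.37 (-3.34 to 0.60), with -6.86, -5.37 and -8.56 on the I/R arrays, a spread wider than its difference. The rises of the fibrillar class lay in types I, III and V and in Col11a1, and the intervals of Col2a1 and Col11a2 stayed under 1 log2 unit in both directions.

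In the basement membrane class, Col4a1 and Col4a2, the chains of the collagen IV network found in all vessels, rose together with Col4a5. Col4a1 measured -0.87, -1.35 and -1.43 on Sham, 2.39, 1.95 and 0.77 on I/R, and 1.34, -0.99 and -0.71 on DHI arrays. Col4a2 measured -4.09, -5.16 and -4.55 on Sham, -1.23, -2.82 and -2.95 on I/R, and -2.61, -4.54 and -4.01 on DHI arrays. For both genes of the head-to-head pair I/R 1 was the highest array and no I/R array overlapped the Sham arrays. The log2 fold changes in I/R versus Sham were 2.92 ± 0.65 for Col4a1 (7.55-fold; 2.58 at the probe printed above) and 2.27 ± 0.62 for Col4a2 (4.81-fold). Col4a5, an X-linked chain of the specialised collagen IV network of glomerulus and some other membranes, measured -3.59, -3.49 and -4.02 on Sham, -0.01, -0.47 and -1.08 on I/R, and -0.51, -3.75 and -3.47 on DHI arrays. It rose by 3.18 ± 0.78. Col4a4, which joins Col4a5 in that network, had a log2 fold change of 1.04 (95% interval -0.02 to 2.10) and did not pass the test, although it passed without I/R 3 and without DHI 1.

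Among the remaining types, both multiplexins, Col15a1 and Col18a1, rose. They are proteoglycans of the basement membrane zone, and collagen XVIII is the source of endostatin. Col15a1 measured -2.62, -2.72 and -2.84 on Sham, 2.68, 2.10 and 0.24 on I/R, and 0.89, -2.70 and -2.29 on DHI arrays. Col18a1 measured -1.48, -2.53 and -2.51 on Sham, 2.36, 1.83 and 0.86 on I/R, and 1.26, -2.30 and -2.01 on DHI arrays. In both, I/R 3 was the lowest I/R array and still above every Sham array. The log2 fold changes were 4.40 ± 0.97 for Col15a1 and 3.86 ± 0.91 for Col18a1.

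Collagen VI is the beaded filament that links cells to the surrounding matrix, and its chains Col6a1 and Col6a2 rose. Col6a2 measured 0.13, -0.51 and -0.81 on Sham, 4.0, 3.58 and 2.92 on I/R, and 3.32, -0.40 and -0.34 on DHI arrays. Col6a1 measured -1.27, -2.21 and -2.26 on Sham, 1.93, 0.97 and 1.09 on I/R, and 1.22, -0.80 and -1.91 on DHI arrays. The fold changes in log2 were 3.90 ± 0.93 for Col6a2 and 3.24 ± 0.73 for Col6a1. Col6a3 did not clear background on any Sham array, and measured -6.24, -6.51 and -7.08 on I/R and -7.06, -9.27 and -9.44 on DHI arrays, of which only DHI 1 was well above background. Its I/R mean was at least 4.66-fold the Sham mean, with no p given because the background filter chose it through the I/R arrays.

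Col8a1, a short-chain collagen of vessel walls, measured -4.94, -5.5 and -5.53 on Sham, -0.83, -1.20 and -2.29 on I/R, and -0.79, -4.71 and -4.16 on DHI arrays. It rose 14.8-fold (log2 3.88 ± 0.94), and DHI 1 exceeded each I/R array. Col7a1, the chain of the anchoring fibrils of skin, measured -4.35, -5.28 and -5.74 on Sham, -1.93, -1.57 and -2.54 on I/R, and -2.18, -4.37 and -4.24 on DHI arrays, a rise of 3.11 ± 0.62 in log2. The transmembrane chains moved less. Col23a1 had a log2 fold change of 0.79 ± 0.29 and passed only the unadjusted test, its second probe (0.69) did not pass, and its call was lost when Sham 1, Sham 3, I/R 1 or I/R 2 was left out. Col13a1, which takes part in forming the neuromuscular junction, had 0.76 (95% interval -0.45 to 1.98) and did not pass.

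The 8 fibril-associated chains with interrupted helices, which sit on the surface of fibrils, split in direction, with 6 higher and 2 lower in I/R. Col22a1 measured -5.75, -7.35 and -7.85 on Sham, -4.16, -3.30 and -4.51 on I/R, and -4.10, -6.57 and -5.22 on DHI arrays, a rise of 2.99 ± 0.73 in log2. Col16a1 (2.32), Col20a1 (2.15), Col12a1 (1.66), Col14a1 (1.53) and Col9a2 (1.18) also rose in I/R, the last without passing the adjusted test and not without Sham 2, Sham 3 or I/R 2. The further probes of Col12a1 (1.77) and Col14a1 (1.72) gave like rises. Col9a1, which pairs with Col9a2 in collagen IX, measured -3.32, -3.13 and -3.11 on Sham, -3.87, -3.94 and -3.86 on I/R, and -3.83, -3.17 and -3.31 on DHI arrays. It fell by 0.70 in log2 (SE 0.19, adjusted p = 0.0404 in limma), while its further probes, at -1.34 and -0.18, did not pass the test. Col19a1, made by subsets of neurons in the brain, had a log2 fold change of -0.59 ± 0.23 and passed only the unadjusted test. Without scaling between arrays, Col9a1 (-0.51) and Col19a1 (-0.40) kept their sign and did not pass. Neither was called lower with normexp background correction, where 22 chains rose and 0 fell (36.5% of all probes called). With the mean of a chain's tested probes 1 chain fell, against 2 in the main fit (43.1% of all probes called in each). The call of Col19a1 was also lost when Sham 2, Sham 3 or any I/R array was left out.

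**Figure D2:**
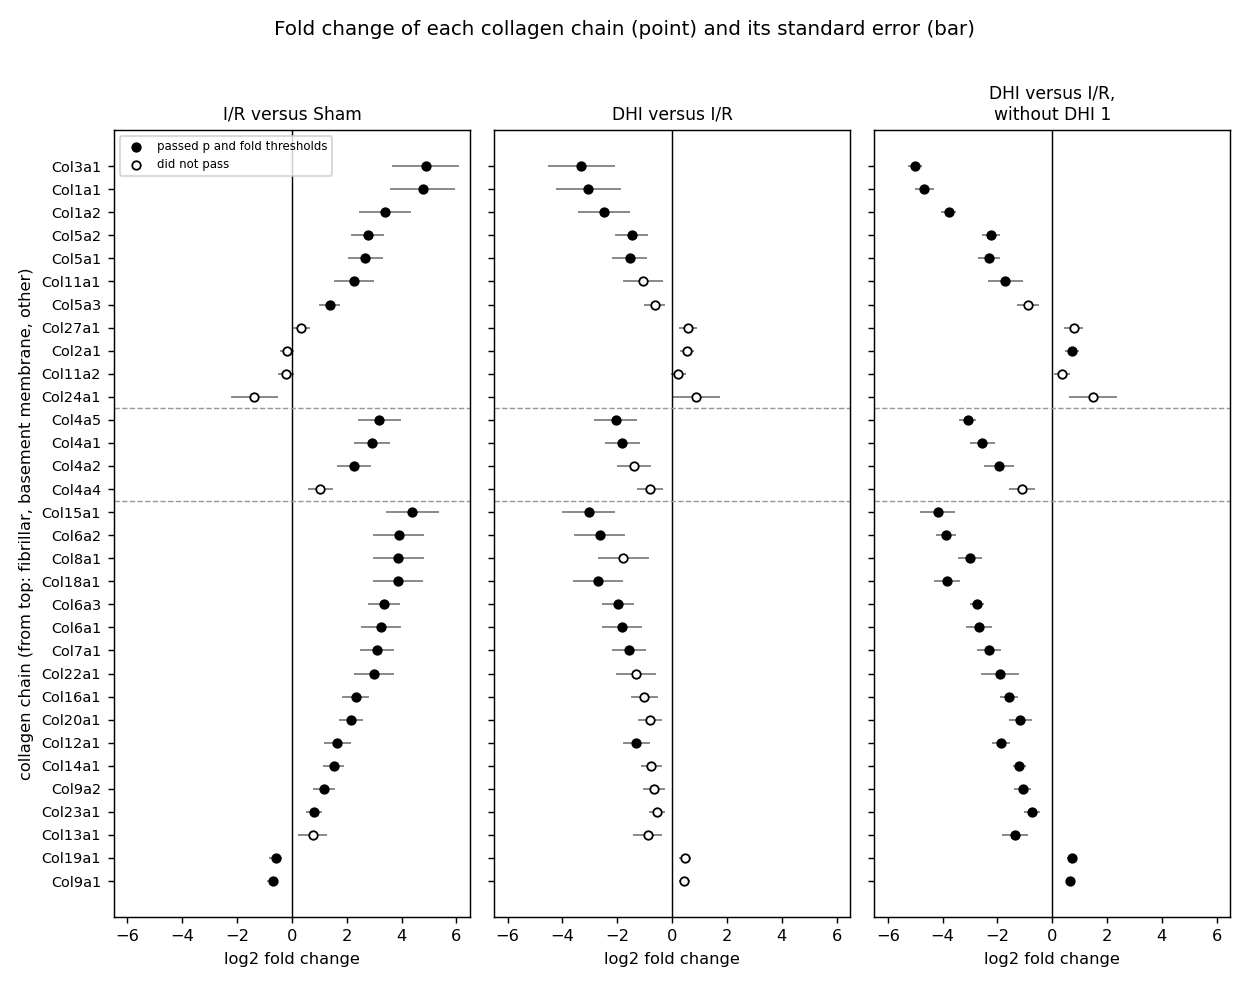
Log2 fold change (x axis) of each tested chain (y axis, by class) in I/R versus Sham, in DHI versus I/R, and in DHI versus I/R without DHI 1. Points are fitted values, bars are standard errors and filled points passed the p and fold thresholds (26, 14 and 27 chains, Col6a3 included at its fitted value). The middle and right panels share the I/R arrays with the left panel.

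The rats of a group differed in how far the chains moved. Of the 24 chains that rose, I/R 1 was the highest I/R array for 16 and I/R 3 the lowest for 23. The median over the 32 chains, relative to Sham, was 2.82, 2.51 and 1.92 on I/R 1 to 3. On the DHI arrays it was 2.46, 0.14 and 0.37. DHI 1 lay above every Sham array for all 24 of these chains, DHI 2 for 7 and DHI 3 for 16. These positions were not counted for all probes that rose in I/R, so they are not shown to be particular to the chains. The SD of a chain had a median of 0.40 among the Sham, 0.51 among the I/R and 1.31 among the DHI arrays for these 24 chains, and the pooled standard errors above contain the DHI spread.

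**Figure D3:**
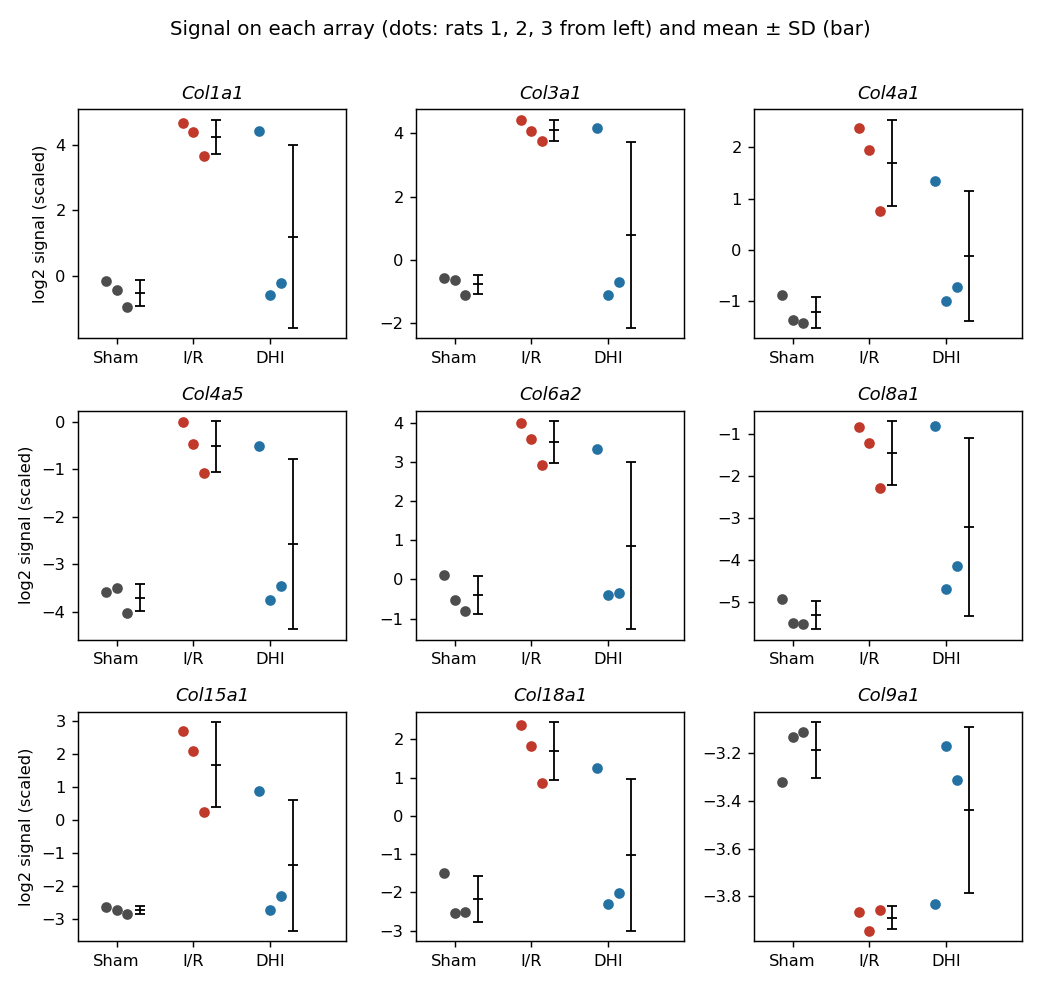
Scaled log2 signal (y axis) of 9 collagen chains in each group (x axis). Dots are rats 1, 2 and 3 from left to right, and the bar gives mean ± SD (n = 3). In Col1a1 to Col18a1, DHI 1 sits with or near the I/R dots and DHI 2 and DHI 3 sit near the Sham dots, and in Col9a1 the same arrangement is inverted.

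DHI versus I/R asks what the treatment changed in rats with the same occlusion. Of 32 chains, 14 fell in DHI, most in Col3a1 (9.96-fold), Col1a1 (8.29-fold) and Col15a1 (8.24-fold). At the methods' thresholds no chain rose beside the 14 that fell (13 of 31 without Col6a3), where 10.5% of all tested probes fell and 11.5% rose (21.9% in either direction). The median log2 fold change of the chains was -1.31 (range -3.32 to 0.88), against 0.10 for all probes. With adjusted p in limma 0 chains passed, against 0.00421% of all probes, with the adjusted p of the 14 at 0.196. For all 14 chains DHI 1 lay within the range of the I/R arrays, and DHI 2 and DHI 3 lay below every I/R array. Both groups therefore overlapped for all 14, and were fully apart for 2 chains (Col9a1 higher and Col23a1 lower), against 9.54% of all probes. The 14 were called on these same arrays. How many of all probes called lower had this arrangement of the DHI arrays was not counted.

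By class, 5 fibrillar chains (Col1a1, Col1a2, Col3a1, Col5a1 and Col5a2), 2 of the basement membrane (Col4a1 and Col4a5) and 7 others (Col6a1, Col6a2, Col6a3, Col7a1, Col12a1, Col15a1 and Col18a1) fell. The class medians in log2 were -1.07, -1.60 and -1.30. Col3a1 fell by 3.32 (SE 1.22), Col1a1 by 3.05 (SE 1.18) and Col1a2 by 2.48 (SE 0.95). Among the others, Col15a1 fell by 3.04 (SE 0.97), Col18a1 by 2.70 (SE 0.91) and Col6a2 by 2.64 (SE 0.93). Col4a5 fell by 2.05 (SE 0.78) and Col4a1 by 1.82 (SE 0.65). Col8a1 had a log2 fold change of -1.78 (95% interval -3.94 to 0.38) and Col4a2 of -1.38 (-2.81 to 0.04), and neither passed the test. Col6a3 was well above background on 3 I/R arrays and 1 DHI array, so no fold change is given, and its call did not hold with normexp background correction.

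These calls depended on the arrays in the fit. Without DHI 1, 24 chains fell and 3 rose (Col2a1, Col9a1 and Col19a1), where 19.1% of all probes fell and 26.2% rose. Of these chains 22 (19 lower, Col6a3 included) passed with adjusted p, against 40.1% of all probes. Without Col6a3 as well, 23 fell. The 24 included 23 of the 24 chains that rose in I/R versus Sham, all but Col5a3. The median of the 32 chains was then -1.89, and by class -1.72 (fibrillar), -2.25 (basement membrane) and -1.89 (other). Col3a1 had a log2 fold change of -5.01 ± 0.27 without DHI 1, Col4a5 of -3.09 ± 0.32, and Col15a1 of -4.17 ± 0.64. DHI 1 was singled out from the values on these same arrays, and leaving it out narrows the spread. Counts and standard errors without it therefore describe DHI 2 and DHI 3 and are no test of the treatment. Leaving out DHI 2 or DHI 3 left 2 chains called in each case, where 3.95% and 4.75% of all probes were called. Leaving out I/R 1 left 1 chain (5.82% of all probes) and I/R 2 left 4 (6.99%), whereas 16 were called without I/R 3 (32.5%). With the fit limited to DHI and I/R arrays 6 chains passed (9.05% of all probes), and with the methods' t-test 0 did (1.97%).

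DHI versus Sham asks how close the treated rats stood to unoccluded ones. Of 32 chains, 6 rose in DHI (Col6a3, Col7a1, Col16a1, Col20a1, Col22a1 and Col27a1), against 2.52% of all probes, and none fell. Without Col6a3, 5 of 31 rose. The median log2 fold change was 1.11 over the chains and 0.02 over all probes, and no chain or other probe passed with adjusted p (0 of 23747 probes, with 1294 at an unadjusted p under 0.05). The log2 fold changes of those other than Col6a3 were 1.69 ± 0.73 (Col22a1), 1.53 ± 0.62 (Col7a1), 1.34 ± 0.44 (Col20a1), 1.31 ± 0.49 (Col16a1) and 0.90 ± 0.33 (Col27a1). No fold change or bound is given for Col6a3, since DHI 1 alone of its DHI and Sham arrays was well above background. For 6 chains each DHI array was above each Sham array, against 10.3% of all probes. Col6a3 was among them, although DHI 2, DHI 3 and the Sham arrays were not well above background for it. Without DHI 1 the median over the chains was 0.28, and Col27a1 was the chain called among 31, against 2.55% of all probes called higher. The test also called Col6a3, for which no array then compared was well above background, so that call has no meaning. The class medians were 0.92 (fibrillar), 0.99 (basement membrane) and 1.26 (other) with all arrays and 0.37, 0.21 and 0.23 without DHI 1.

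Genes that modify, fold and fix collagen were taken from fixed lists, and most of them rose in I/R versus Sham. Over all tested probes 20.8% rose and 22.3% fell. In the endoplasmic reticulum, proline and lysine residues are hydroxylated, sugars are added and chaperones hold the helix. Of 18 such genes 11 rose and 2 fell (median 1.52), with the prolyl isomerase Fkbp10 (2.56 ± 0.71) and the collagen chaperone Serpinh1 (2.37 ± 0.50) highest. The prolyl hydroxylase subunit P4ha3 (-1.49 ± 0.45) and the galactosyltransferase Glt25d2 (-0.60 ± 0.23) fell. All 3 lysyl hydroxylases rose, Plod1 by 2.14, Plod2 by 2.04 and Plod3 by 1.56, whereas the prolyl hydroxylases P4ha1 (0.33) and P4ha2 (0.20) did not pass.

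Outside the cell, propeptides are removed and lysines are oxidised for cross-linking. Of the 12 tested genes for these steps 9 rose and 1 fell (median 2.41), led by the lysyl oxidases Loxl1 (3.89 ± 1.00) and Loxl2 (3.48 ± 0.72). The procollagen N-proteinase Adamts3 fell (-1.01 ± 0.44), with its unadjusted p barely under the threshold. The astacin protease Tll2 cleared background on no I/R array, with a Sham mean at least 2.01-fold that of I/R. No p is given for it because the background filter chose it through the Sham arrays. Among 9 tested proteins that bind or organise fibrils 8 rose, with the small leucine-rich proteoglycans Lum (4.85 ± 1.33) and Bgn (3.37 ± 0.80) highest. Tgfbi (1.38) rose least, and Fmod (1.34) did not pass. Of 8 tested collagen receptors 5 rose, most in the endocytic receptor Mrc2 (3.52 ± 0.60) and the kinase Ddr2 (2.53 ± 0.58), while Itga11 (0.03) and Gpr56 (0.57) did not pass. These counts stand beside 20.8% of all tested probes that rose and 22.3% that fell.

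In DHI versus I/R the same 4 lists, in that order, had 9, 6, 5 and 4 genes that fell and 2, 1, 0 and 0 that rose, with medians of -0.86, -1.45, -1.32 and -0.86. Over all tested probes 10.5% fell and 11.5% rose. Without DHI 1 the falls numbered 12, 9, 9 and 4 and the rises 2, 2, 0 and 0, where 19.1% of all probes fell and 26.2% rose. Relative to Sham, the median of the cross-linking list was 2.42, 0.07 and 0.17 on DHI 1 to 3, the same order of arrays as in the chains.

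Markers of other cell types differed between DHI and I/R on the same arrays. Of all tested probes 10.5% fell and 11.5% rose with all arrays, and 19.1% fell and 26.2% rose without DHI 1. Of 8 fibroblast and leptomeningeal markers 7 fell in DHI (median -2.11; 8 fell without DHI 1), and of 8 microglia and macrophage markers 4 fell (median -2.17; 7 fell and 1 rose without DHI 1). Of 7 neuron markers 6 rose (median 2.03; 7 without DHI 1). Of 4 red blood cell markers 3 rose, each with the DHI arrays above every I/R array, and 1 fell (median 2.37), with the same counts without DHI 1. Endothelial markers (1 rose and 1 fell of 9, median -0.14) were called in 22.2% of cases, near the 21.9% of all tested probes. Mural markers (1 fell of 9, median -0.37) were called in 11.1%. Among the rest, 2 of 7 astrocyte markers fell, 1 of 7 oligodendrocyte and 1 of 7 cartilage and bone markers rose, and 0 of 6 choroid plexus markers were called. None of these calls passed with adjusted p with all arrays (0 in each list). Their part in the collagen results was not tested.

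**Figure D4:**
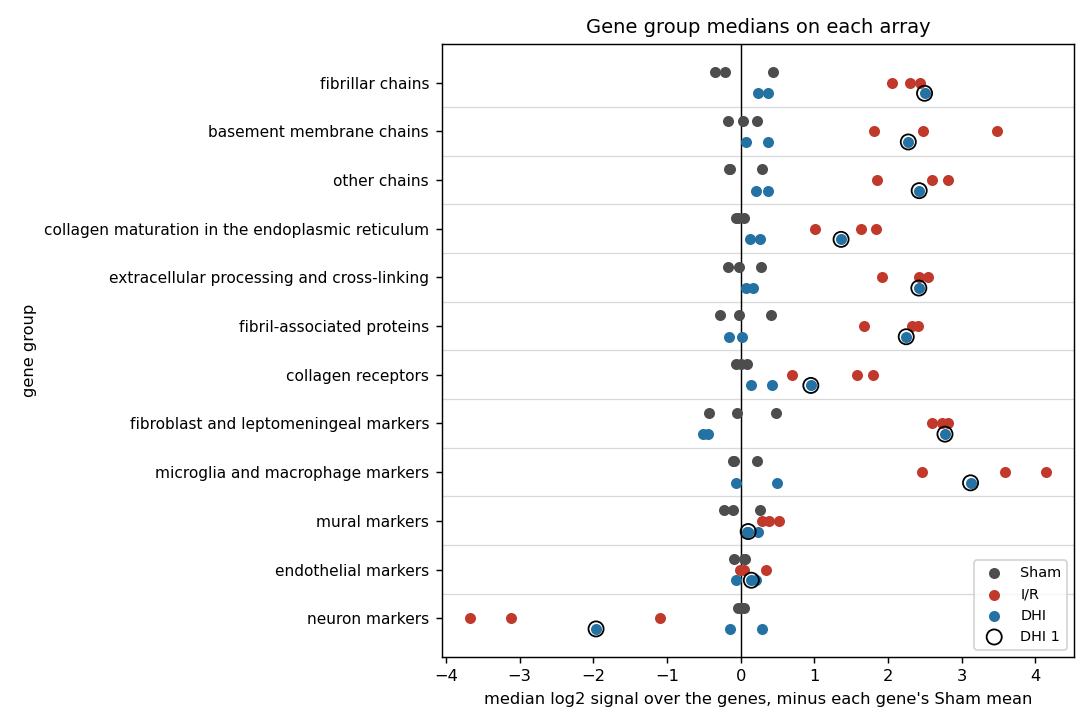
Median log2 signal over the genes of each group (y axis), relative to the Sham mean of each gene (x axis), on each array. DHI 1 is circled. In the collagen chains, the 4 collagen lists, and the fibroblast and microglia markers, DHI 1 lies among or near the I/R arrays and DHI 2 and DHI 3 near 0, and the endothelial and mural medians stay between -0.23 and 0.52 on all arrays.

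The hemisphere holds many cell types, and markers of each were read on the same arrays, where 20.8% of all tested probes rose and 22.3% fell in I/R versus Sham. Markers of fibroblasts and leptomeningeal cells, the cells that make most fibrillar collagen, rose in 8 of 8 cases in I/R versus Sham (median 2.68), with Lum and Igf2 (4.04) highest and Pdgfra (1.83) and Slc6a13 (2.15) lowest. Lum, Dcn and Ogn are also in the list of fibril-associated proteins. On DHI 1 this marker list had a median of 2.77 relative to Sham, against 2.6 to 2.81 on the I/R arrays and -0.44 and -0.51 on DHI 2 and DHI 3. Its part in the collagen results was not tested.

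Vessel markers moved less, with 44.4% of endothelial and 33.3% of mural markers called, against 43.1% of all tested probes. Of 9 endothelial markers 3 rose and 1 fell in I/R versus Sham (median 0.16), with Tie1 (1.88) and Tek (1.1) highest and Slco1c1 (-0.99) and Flt1 (-0.25) lowest. Of 9 mural markers 3 rose (median 0.41), with Anpep (3.43) and Pdgfrb (2.38) highest and Abcc9 (-0.64) and Myh11 (-0.25) lowest. The endothelial medians per array ran from -0.01 to 0.34 in I/R and the mural ones from 0.29 to 0.52, below the 1.82 to 3.49 of the basement membrane chains on the same arrays. The part of vessel cells in the collagen results was not tested.

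Other cell types changed alongside, where 20.8% of all tested probes rose and 22.3% fell. Of 8 microglia and macrophage markers 7 rose (median 3.4), with Cd68 (6.69) and Ptprc (4.68) highest and Cd163 (1.62) and Cx3cr1 (-1.0, not passing) lowest. All 7 neuron markers fell (median -2.66), from Nefl (-3.04) and Snap25 (-3.0) to Tubb3 (-1.73) and Stmn2 (-1.66). On I/R 1 to 3 the neuron medians were -3.67, -3.12 and -1.09 and the microglia medians 4.14, 3.59 and 2.46, so that I/R 3, the lowest I/R array for the chains, was also the least changed in both lists. Their part in the collagen results was not tested.

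Of 7 astrocyte markers 4 rose and 1 fell, with Gfap (3.63) and Aqp4 (1.47) highest and Slc1a2 (-1.12) and S100b (0.20) lowest. Beside this and the following counts, 20.8% of all tested probes rose and 22.3% fell. Of 7 oligodendrocyte markers 1 rose, with Cldn11 (0.95) and Cnp (0.43) at the top and Mbp and Mobp (-0.24 and -0.23) at the bottom. Choroid plexus markers varied between rats, with medians of -0.33, 2.02 and 3.43 on the I/R and 4.51, 0.16 and 3.01 on the DHI arrays, and 2 of 6 rose, Folr1 (4.51) and Aqp1 (3.68), with Kcne2 (-0.07) and Clic6 (0.59) lowest. DHI 3 was high in this list and low in the chains. Of 4 red blood cell markers 3 fell and 1 rose, from Hbb (-2.17) and Hba-a2 (-2.04) to Alas2 (-1.72) and Slc4a1 (1.95). In the list for cartilage and bone, tissues rich in Col2a1 and Col11a2, 1 of 7 markers fell (Matn1, -0.90) and none rose. There Comp (-1.40) and Ibsp (-1.02) were lowest and Lect1 (0.91) and Bglap (0.99) highest, without passing, and Matn3 did not stand well above background on an array of any group.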

How the data were processed

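Total RNA of 9 rat hemispheres (3 Sham, 3 I/R and 3 DHI) was hybridised to one-color Agilent SurePrint G3 Rat arrays. The authors deposited spot intensities on a linear scale with background flags, from Agilent Feature Extraction (10.7.1.1), and a series table of log2 values, which followed quantile-normalized intensities and served as an alternative. Groups came from the sample labels, and 0 columns were unused. Whether rats shared a cage or batch was not stated.

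A probe's value was log2 processed signal minus the array's 75th percentile (1816.3 to 3464.4), without control spots or the 392 to 725 outlier spots per array. No spot was saturated (0). With 3 arrays per group, their number limits the precision.

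A limma model (limma 3.58.1 in R 4.3.3, with 6 residual degrees of freedom) was fitted to 23747 probes on the 9 arrays. Calls needed an unadjusted p under 0.05 and FC over 1.5, or the same with the Benjamini-Hochberg adjusted p. The steps were checked on simulated data. Probe coordinates are those deposited (rn4), with no exon annotation used.

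Alternatives were quantile normalization, no scaling, normexp (offset 50), the series table, filters, array weights, a replicate block, the methods' t-test, the mean of a chain's probes, and leaving out each array. All chains are named, with array values for up to 8 called chains per class with the largest change, and the 2 highest and 2 lowest genes per list. The members and lists were chosen with earlier results of these data known.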

Additional observations from a re-analysis of the deposited data

How the results depend on the processing

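In I/R versus Sham the count of 26 called chains ran from 22 (normexp, 36.5% of all probes) to 29 (array weights, 55.8%) over all alternatives. It ran from 23 to 27 when an array was left out, where 31.7% to 48.6% of all probes were called. The adjusted count of 23 was 0 without scaling between arrays (0.00421% of all probes). With only the I/R and Sham arrays in the fit 24 chains rose and 2 fell with adjusted p (41.1%), and with array weights 27 rose and 2 fell (55.7%). When an array was left out, the adjusted count ran from 0 to 26. The 26 came without DHI 1, where 43.2% of all probes passed. For the other chains the median was 1.56 with normexp background correction and 1.66 without the filter on dim probes. For the fibrillar chains it was 2.73 with array weights, and from 1.84 to 2.85 when an array was left out. Chains that did not pass changed sign. Col2a1 had 0.012 without scaling and 0.17 with array weights, Col11a2 had 0.14 with array weights and between -0.35 and 0.032 when an array was left out, and Col24a1 had 0.23 with array weights.

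In DHI versus I/R the 14 called chains became 22 without scaling (31.3% of all probes, against 21.9%) and 28 with array weights (28 also with adjusted p, and 51.4% of all probes either way). They became 6 with only the 2 groups compared (9.05%) and 0 with the methods' t-test (1.97%). Leaving out an array gave 1 to 27, where 3.95% to 45.2% of all probes were called, and 0 to 22 with adjusted p. The 22 came without DHI 1, where 40.1% of all probes passed. Col6a3 had 0.057 with normexp. In DHI versus Sham the 6 (3.58% of all probes) became 3 with quantile normalization (3.3%) and with the series table (3.31%). They became 0 without scaling (7.11%) and 2 with only the 2 groups compared (3.82%). With array weights there were 13 (13 with adjusted p, 17.6% and 17.2% of all probes), and with the methods' t-test 1 (1.89%). Without 1 array the count ran from 1 to 9, where 1.45% to 10.6% of all probes were called. Without scaling the median of all probes moved from -0.10 to 0.10 (I/R versus Sham), from 0.10 to -0.36 (DHI versus I/R) and from 0.02 to -0.25 (DHI versus Sham), and the chain medians, at 2.49, -1.77 and 0.85, stayed on the same side of these. The cause of these differences was not tested.

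Correlations of same-numbered deviations ran from -0.34 to 0.48. Whether replicate numbers pair the rats cannot be told from these, since differently numbered pairs were not set beside them. With the replicate number as a block the counts were 28, 19 and 12 in the 3 comparisons, where 43.8%, 26.6% and 5.39% of all probes were called. With adjusted p the chain counts were 23, 0 and 0, against 35.5%, 0.00421% and 0% of all probes. The limits are 3 rats per group, DHI on a slide of its own, and dim chains, since 29 of the 37 chains were well above background on all 9 arrays.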
